A study of Mus musculus with 25 samples.

Results

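Trp53, the gene of the tumour suppressor p53, and 9 genes that p53 is known to switch on were followed in mouse basal cell carcinomas and in ASZ001 basal cell carcinoma cells. The members were taken by symbol (Trp53, Cdkn1a, Mdm2, Ccng1, Zmat3, Perp, Eda2r, Trp53inp1, Sesn1 and Btg2), and all 10 were among the 24015 gene symbols of each table and passed the filter on low values in both. RNA was sequenced from 4 sensitive and 4 resistant tumours and for 9 ASZ001 libraries, and the 8 exome samples of the series were not analysed here. The tumours of both groups came from C57BL6 mice of genotype Ptch+/- with K14 Cre-ER and p53 fl/fl, all given a Smo inhibitor by mouth, and the labels name the groups only by tumour stage. ASZ001 cells, labelled as resistant basal cell carcinoma cells, received vehicle, CCG-1423 (a small molecule that blocks MRTF, the coactivator of SRF that actin controls) or vismodegib (which blocks Smo, the signal transducer of the Hedgehog pathway), with 3 libraries each. ASZ001 is a single line, so its libraries do not sample different tumours. The sources used here do not give the inhibitor's name in the mice, their ages, the doses and treatment times, or the p53 genotype of ASZ001.

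p53 is a transcription factor that is kept low in unstressed cells because its own target Mdm2 marks it for destruction, and that is stabilised mainly at the protein level by DNA damage and other stresses. Its targets halt the cell cycle, alter metabolism and promote cell death or repair, and most of them also answer to other regulators, among them the relative p63 in epidermis. Loss of p53 is common in basal cell carcinoma. In these mice both copies of the gene carry sites that Cre cuts. Cre, here as Cre-ER, is driven by the keratin 14 promoter, which is active in basal keratinocytes, so stromal and immune cells would keep the gene. Whether the gene was cut in the tumour cells was not tested. The exons that are removed are not given in the labels, and a count over the whole gene cannot tell an intact transcript from one that lacks them. The Trp53 counts below are therefore no check of the deletion.

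The promoters of the members were searched for the decamer to which each pair of p53 subunits binds, to show which of these genes carry it next to their start. The windows run from 250 bases before to 50 bases after an annotated start (RefSeq, GRCm38.p6), and the pattern equals its own reverse complement, so a search of 1 strand covers both. Entries were found for 7 of the 10 members, with 9 windows in all. A decamer was present in 5 of the 9 windows, against 8.36% of all 32851 windows, and a pair of decamers separated by at most 13 bases in 1 of the 9, against 0.0731% of all. That pair lies in the upstream window of Cdkn1a, with its decamers starting 73 and 51 bases before the start and 12 bases between them. The 10 bases after the second decamer, tgacatgttc, fit the pattern at 9 of 10 positions. Single decamers stood 186 bases before the start in Mdm2 (GAACTTGCCT), 185 bases before it in Ccng1 (GGGCAAGCCT), 75 bases before it in Trp53 (GGACTTGCCC) and 173 bases before it in the downstream window of Sesn1 (AAGCTTGTTT). The windows of Btg2 and Eda2r, the downstream window of Cdkn1a and the upstream window of Sesn1 held none. A match is a description of letters and not of binding. The windows of 3 members that passed by limma in the tumours only when 1 sensitive tumour was left out, as described below, follow with decamers in capitals.
Cdkn1a, upstream start, chr17:29090729-29091028, plus strand: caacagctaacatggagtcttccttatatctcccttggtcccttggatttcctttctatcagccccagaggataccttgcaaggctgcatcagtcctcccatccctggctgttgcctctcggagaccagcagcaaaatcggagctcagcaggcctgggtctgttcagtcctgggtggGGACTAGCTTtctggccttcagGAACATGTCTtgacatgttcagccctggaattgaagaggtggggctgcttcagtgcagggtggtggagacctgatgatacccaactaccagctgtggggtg
Mdm2, chr10:117710709-117711008, minus strand: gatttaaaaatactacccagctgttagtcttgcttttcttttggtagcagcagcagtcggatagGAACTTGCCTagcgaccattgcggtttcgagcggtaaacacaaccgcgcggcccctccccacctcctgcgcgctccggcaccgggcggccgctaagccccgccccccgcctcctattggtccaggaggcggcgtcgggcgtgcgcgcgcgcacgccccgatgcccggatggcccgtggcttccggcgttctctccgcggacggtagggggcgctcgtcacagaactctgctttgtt
Sesn1, downstream start, chr10:41887189-41887488, plus strand: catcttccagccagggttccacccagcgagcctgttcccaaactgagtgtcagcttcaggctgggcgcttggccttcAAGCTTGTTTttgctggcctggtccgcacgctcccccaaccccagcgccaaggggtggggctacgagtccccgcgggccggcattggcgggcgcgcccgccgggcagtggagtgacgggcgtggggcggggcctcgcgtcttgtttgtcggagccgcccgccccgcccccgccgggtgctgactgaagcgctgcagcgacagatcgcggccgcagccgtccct

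Values are normalized read counts, that is reads per gene divided by a size factor of the library, and fold changes are on the log2 scale of the normalized count plus 1. Reads at genes numbered 8111252 to 20014426 in the tumour and 30455530 to 44017757 in the cell libraries. Sensitive tumour 4 differed from sensitive tumours 1 to 3 in its Y-linked reads: it had 0 reads at 4 Y-linked genes, where they had 1391 to 2174. All 4 resistant tumours also had 0 reads there. Sensitive tumour 4 also stood apart over genes in general, by the chi-square per degree of freedom, a measure of difference beyond counting noise. It was 157 to 183 between sensitive tumour 4 and sensitive tumours 1 to 3, and 13.5 to 39.7 among sensitive tumours 1 to 3. The tumour result of each member is therefore given with and without sensitive tumour 4, a choice made with earlier results of these data known. By limma, leaving out any other single tumour gave 0 genes passing. Without sensitive tumour 4 sex and group coincide and cannot be told apart. The labels leave unsaid if replicates came from different animals or dishes, and the p-values then cover the spread of these libraries alone, which may be technical. Of the labelled tissue's markers, Krt5, Krt14, Trp63, Ptch1 and Gli1 had reads in every group. Markers of stroma were also high in the tumours. The 6 fibroblast genes summed to 64299 to 136005 in the sensitive and 77400 to 117394 in the resistant tumours, with none at 0. In vehicle-treated cells they summed to 176 to 205, with Lum at 0.

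The first comparison asks whether p53 and its targets differ between resistant and sensitive tumours. With all 8 tumours 0 of the 10 members passed an adjusted p of 0.05 by limma, where 0.113% of the 15076 genes tested did (0.0332% higher and 0.0796% lower in resistant tumours). At an unadjusted p below 0.05 there were 3789 genes, among them the members Btg2, Perp and Mdm2. The count test edgeR called 0 genes, and DESeq2 called 10.8% of genes and 3 members (Perp, Sesn1 and Btg2). Without sensitive tumour 4, Mdm2 and Cdkn1a rose and Sesn1, Trp53inp1, Btg2 and Perp fell, which is 6 of 10 members against 40.0% of the 15479 genes tested (20.6% higher and 19.4% lower). The groups of 7 members did not overlap in that case, against 47.6% of genes. Trp53, Ccng1, Zmat3 and Eda2r did not pass in that fit. With sex as a term, which sets the resistant tumours against sensitive tumour 4 alone, Trp53 (0.41), Cdkn1a (-0.74), Mdm2 (-0.046), Zmat3 (0.20), Trp53inp1 (0.50) and Sesn1 (0.76) turned in sign and none passed. In these bulk libraries fewer cells of a type and less RNA per cell cannot be told apart.

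Trp53 itself had 651, 606, 588 and 346 normalized counts in sensitive tumours 1 to 4 and 365, 451, 387 and 698 in resistant tumours 1 to 4. The groups overlapped, with the highest value in resistant tumour 4 and the lowest in sensitive tumour 4. The log2 fold change was -0.21 ± 0.27 (SE, adjusted p = 0.624) and -0.42 ± 0.23 without sensitive tumour 4 (adjusted p = 0.173).

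Mdm2, the ubiquitin ligase that is both a target and the main inhibitor of p53, had 1248, 1135, 1015 and 3411 normalized counts in the 4 sensitive tumours. Resistant tumours 1 to 4 had 4918, 2426, 3103 and 3218. Sensitive tumour 4 lay inside the resistant range, and the other sensitive tumours lay below every resistant one. Its log2 fold change was 1.15 ± 0.39 with all tumours (adjusted p = 0.148) and 1.55 ± 0.23 without sensitive tumour 4 (adjusted p = 0.00132). Ccng1, which encodes cyclin G1, a partner of the phosphatase PP2A that acts on Mdm2, had 1152, 1385, 1295 and 1042 in the sensitive and 1709, 1764, 1459 and 972 in the resistant tumours. Resistant tumour 4 was the lowest of all 8, and the log2 fold change of Ccng1 was 0.25 ± 0.21 (adjusted p = 0.458) and 0.17 ± 0.22 without sensitive tumour 4 (adjusted p = 0.543).

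Cdkn1a, which encodes the cyclin-dependent kinase inhibitor p21, had the widest relative spread among sensitive tumours. Its values there were 991, 1000.3, 992 and 3838 normalized counts, in the order of their numbers. Resistant tumours 1 to 4 had 3780, 1819, 1889 and 2173. Sensitive tumour 4 was thus above every resistant tumour, and sensitive tumours 1 to 3 were below every one. Its log2 fold change was 0.73 ± 0.46 (adjusted p = 0.326) and became 1.21 ± 0.25 (adjusted p = 0.00552) without sensitive tumour 4. Btg2, an antiproliferative gene whose product recruits the mRNA deadenylation machinery, ran the other way. Its values were 770, 769, 873 and 476 in sensitive and 389, 278, 284 and 463 in resistant tumours. The groups did not overlap, although sensitive tumour 4 lay just above the highest resistant tumour. Btg2 averaged 354 ± 89.1 in the resistant tumours (SD, n = 4), and its log2 fold change was -1.03 ± 0.25 with all tumours (adjusted p = 0.135) and -1.21 ± 0.21 without sensitive tumour 4 (adjusted p = 0.00257).

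Sesn1, which encodes a sestrin that restrains mTORC1 signalling and oxidative damage, had 1684, 1554, 1126 and 170 normalized counts in sensitive tumours 1 to 4 and 223, 358, 197 and 447 in resistant tumours 1 to 4. Sensitive tumour 4 was the lowest of all 8. Sesn1 had a log2 fold change of -1.54 ± 0.68 (adjusted p = 0.201) and of -2.30 ± 0.30 without it (adjusted p = 0.000825), the largest difference among the members in that fit. Trp53inp1, a stress protein that promotes autophagy and cell death, had 3171, 2997, 3045 and 741 in the sensitive and 988, 1573, 941 and 820 in the resistant tumours. It too had its lowest value in sensitive tumour 4, and its log2 fold change went from -1.04 ± 0.46 (adjusted p = 0.201) to -1.55 ± 0.21 (adjusted p = 0.00103) when that tumour was left out.

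Perp, a tetraspan protein of desmosomes that is needed for p53-dependent death in some cells and is a p63 target in skin, had 12030, 12401, 8411 and 6503 normalized counts in sensitive tumours 1 to 4. Resistant tumours had 5727, 4608, 5465 and 4176, all below every sensitive tumour. Perp and Btg2 were the 2 members whose groups did not overlap over all 8 tumours, as was the case for 7.90% of the genes tested. The log2 fold change of Perp was -0.94 ± 0.24 (adjusted p = 0.138) and -1.12 ± 0.19 without sensitive tumour 4 (adjusted p = 0.00237). Beside it, the 5 desmosome genes Dsp, Jup, Pkp1, Dsg3 and Dsc3, none at 0, summed to 49649 to 72705 in the first 3 sensitive tumours, to 27651 in the fourth and to 18018 to 42119 in resistant tumours. The part of epidermal cell content in the difference was not tested.

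Eda2r, the X-linked receptor of ectodysplasin A2, was close to the limit of detection with 5 to 42 reads a tumour. It had 36.8, 33.9, 33.1 and 5.07 normalized counts in the sensitive and 32.4, 22.2, 33.3 and 16.7 in the resistant tumours, and its log2 fold change was 0.20 ± 0.62 (adjusted p = 0.853). That sign rests on sensitive tumour 4: without it Eda2r had -0.44 ± 0.33 (adjusted p = 0.308), and with all tumours it had -0.074 with DESeq2 and -0.073 with edgeR. Zmat3, an RNA-binding protein that regulates splicing, had 1631, 2018, 1825 and 1213 in the sensitive and 1209, 1387, 1551 and 1439 in the resistant tumours. Its groups overlapped through sensitive tumour 4. Zmat3 had a log2 fold change of -0.24 ± 0.18 with all tumours (adjusted p = 0.410), and without sensitive tumour 4 it was -0.39 ± 0.14 (adjusted p = 0.0566), short of the threshold.

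**Figure D1:**
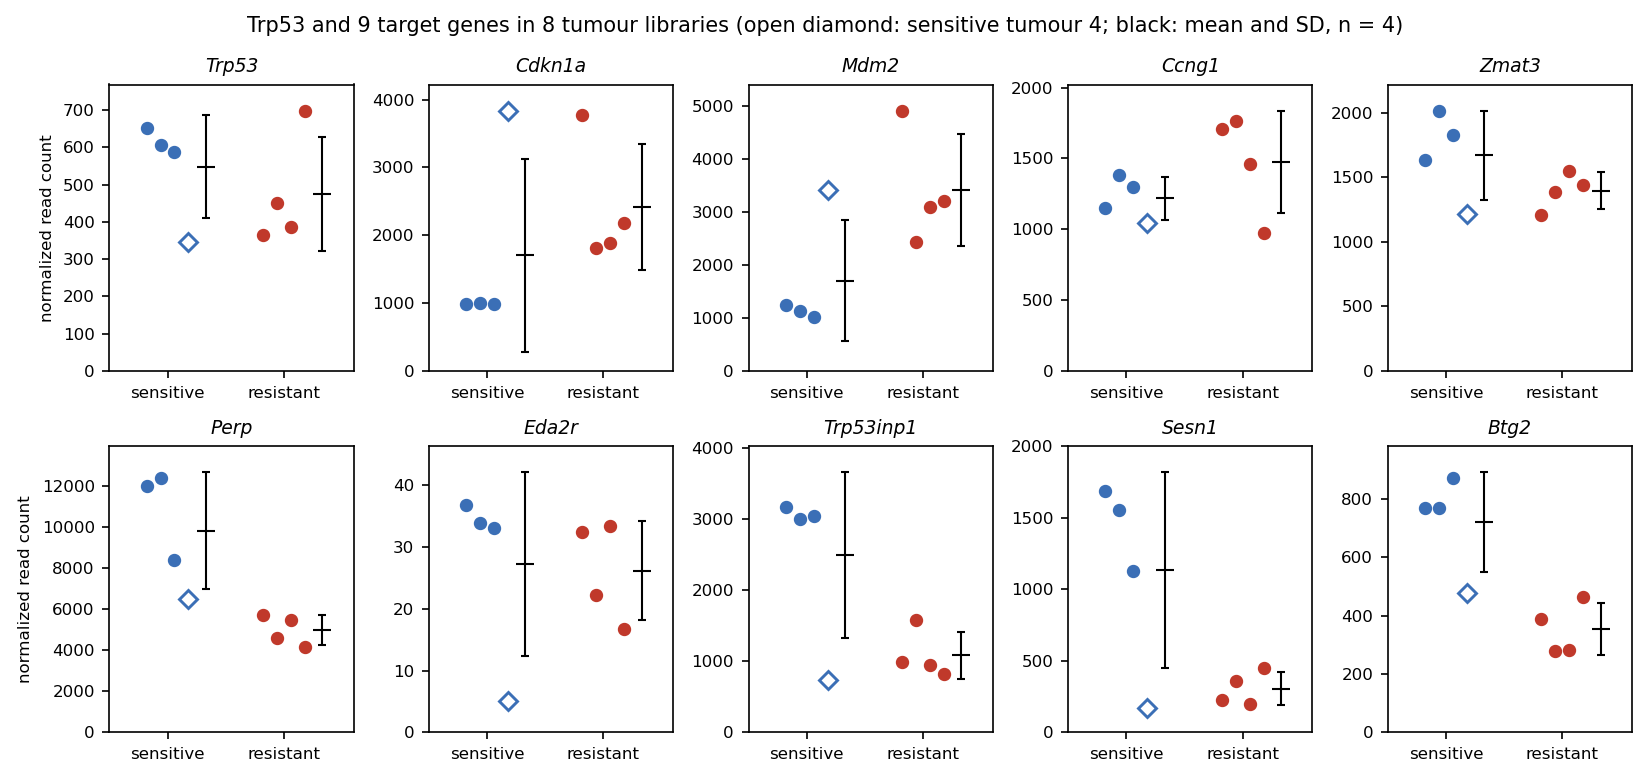
Normalized read counts (vertical axes, each from 0) of the 10 members in sensitive and resistant tumours; each point is a library, the open diamond is sensitive tumour 4, and the black mark is the mean with its SD (n = 4). Sensitive tumour 4 lies with or beyond the resistant tumours for every member except Perp and Btg2, for example at 170 in Sesn1 against 197 to 447 in the resistant tumours. For Trp53, Ccng1 and Eda2r the other sensitive tumours overlap the resistant ones as well.

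Other genes of the pathway, from lists written with earlier results of these data known, were read in the same fits. Of 46 other p53 targets tested in all 8 tumours 0 passed with limma or edgeR, with a median log2 fold change of 0.12 against 0.03 over all genes, while DESeq2 called 2 higher and 5 lower. Those of smallest p by limma were Rps27l (1.13 ± 0.26), a ribosomal protein relative, and Kitl (1.09 ± 0.27), the ligand of the receptor Kit, with adjusted p of 0.128 and 0.136. DESeq2 called both, and without sensitive tumour 4 both rose (1.23 ± 0.26 and 1.23 ± 0.25 for Rps27l and Kitl). In that fit 10 of 47 rose and 12 fell, which is 46.8% against 40.0% of all genes (median 0.17, against 0.02 over all genes). Among these Ephx1, a detoxifying epoxide hydrolase, fell by 3.31 ± 0.28, Zfp365 by 2.19 ± 0.29, Ptpn14, a phosphatase that restrains YAP, by 2.16 ± 0.28 and Tap1, a peptide transporter for antigen presentation, by 1.34 ± 0.18 on the log2 scale. DESeq2 called these 4 with all tumours as well, where limma did not. The pro-apoptotic gene Bax rose by 0.71 ± 0.23 (adjusted p = 0.0363), while Bbc3, which encodes PUMA, had -0.31 ± 0.33.

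Among 22 members of the p53 family and regulators 0 passed with all tumours by limma or edgeR, and DESeq2 called 1 higher and 3 lower, among them Twist1, Trp53bp2 and Rfwd2. Without sensitive tumour 4, 4 rose, 7 fell and 11 did not pass, where 40.0% of all genes passed. Trp63, the epidermal relative of p53, averaged 16241 ± 8985 in sensitive and 7234 ± 1661 in resistant tumours (SD, n = 4 each), with a log2 fold change of -0.97 ± 0.47 (adjusted p = 0.228) and -1.45 ± 0.27 without sensitive tumour 4 (adjusted p = 0.00377). Mdm4, the partner of Mdm2 that silences p53, had -0.47 ± 0.25 with all tumours and fell by 0.69 ± 0.17 without sensitive tumour 4 (adjusted p = 0.0125), so that it lay opposite to Mdm2. Cdkn2a, whose ARF product blocks Mdm2, had 0.80 ± 0.28 (adjusted p = 0.154) and rose by 0.96 ± 0.27 without that tumour (adjusted p = 0.022). Twist1, a mesenchymal transcription factor that inhibits p53, had 2.67 ± 0.56 and rose by 3.05 ± 0.51, Chek1, a checkpoint kinase, rose by 2.14 ± 0.36, and Trp53bp2 fell by 1.27 ± 0.15 without it. Rfwd2, a ubiquitin ligase for p53, had -0.71 ± 0.22 over all tumours (adjusted p = 0.143) and fell by 0.86 ± 0.19 without sensitive tumour 4 (adjusted p = 0.00718). Trp73, the third family member, had -0.54 ± 0.21 and -0.51 ± 0.22.

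Cell cycle genes that p21 is known to lower through the DREAM repressor complex were positive in 20 of 20 cases with all tumours. Of these, 0 passed by limma, edgeR or DESeq2, and the median log2 fold change was 1.36, against 0.03 over all genes. The smallest p belonged to Mad2l1 (1.20 ± 0.48) and Ube2c (1.55 ± 0.63). With sex as a term both turned in sign (-0.28 and -0.55), as did Ccna2, Foxm1 and Mcm5. Without sensitive tumour 4 all 20 rose, where 20.6% of all genes did, with a median of 2.09, among them Mcm5 (2.996 ± 0.26), Foxm1 (2.36 ± 0.30), Ube2c (2.25 ± 0.29) and Ccna2 (2.06 ± 0.28). Cdkn1a, whose product is known to lower these genes, rose in the same comparison. Of 16 integrated stress response genes, the targets of the translation-linked factor ATF4 and their relatives, 0 passed with all tumours by limma or edgeR (median 0.77, Slc7a11 1.87 ± 0.61, Atf4 0.85 ± 0.28), and DESeq2 called Slc7a11 alone. Without sensitive tumour 4, 10 rose, or 62.5% (median 1.098), among them Vldlr (1.84 ± 0.27), Psat1 (1.73 ± 0.23), Asns (1.23 ± 0.24) and Atf4 (1.09 ± 0.21). Neutrophil markers moved with the same split of the tumours: the 4 genes S100a8, S100a9, Csf3r and Cxcr2, none at 0, summed to 626 to 1037 in the first 3 sensitive tumours, to 15784 in the fourth and to 5716 to 8737 in resistant tumours. The 4 macrophage genes summed to 2860 to 7256 and 2757 to 11713 in the 2 groups, and the 5 genes of basal keratinocytes and basal cell carcinoma to 59261 to 170566 and 27103 to 67534. These 5 genes did not move together. Without sensitive tumour 4, Ptch1 (3.06 ± 0.47) and Gli1 (1.98 ± 0.27) rose, while Krt5 (-1.85 ± 0.44), Krt14 (-1.99 ± 0.31) and Trp63 (-1.45 ± 0.27) fell. With all tumours Ptch1 had 2.19 and Gli1 1.53, and none of the 5 passed by limma. The part of cell content in these results was not tested.

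The second comparison asks how p53 and its targets differ in ASZ001 cells given CCG-1423 rather than vehicle. Trp53, Mdm2 and Eda2r rose and Cdkn1a, Ccng1, Zmat3, Perp, Trp53inp1, Sesn1 and Btg2 fell. All 10 members passed, as did 85.3% of the 12775 genes tested (42.8% higher and 42.6% lower), so the count is near the background and only sizes and directions are described. No member overlapped between the groups, which held for 85.8% of genes. The members' median log2 fold change was -0.40, against 0.0034 over all genes, and the median size over all genes was 0.57 in either direction.

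The transcript of p53 rose, while 7 of its 9 targets among the members fell. Trp53 had 5468, 5340 and 5057 normalized counts in vehicle libraries 1 to 3 and 7285, 7740 and 7927 in CCG-1423 libraries 1 to 3, with no overlap. Its log2 fold change was 0.53 ± 0.04 (1.45-fold, adjusted p = 2.3e-09). Mdm2 had 3101, 2958 and 3051 with vehicle and 3856, 3438 and 3818 with CCG-1423, a log2 fold change of 0.28 ± 0.04 (adjusted p = 1.4e-05). Ccng1, next to Mdm2 in the feedback on p53, fell from 2923 ± 60.3 to 2115 ± 93.0 (SD, n = 3 each), a change of -0.47 ± 0.04.

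The member with the largest change was Eda2r, which had 19.6, 14.9 and 20.4 normalized counts with vehicle and 169, 140 and 128 with CCG-1423. These rest on 14 to 24 reads a library with vehicle and 138 to 162 with CCG-1423. The log2 fold change was 2.93 ± 0.19 (7.61-fold, adjusted p = 8.3e-10). Trp53inp1 moved furthest down, from 5210, 5395 and 5343 to 1786, 1573 and 1634, a log2 fold change of -1.68 ± 0.05 (adjusted p = 1.5e-14). Both lay well outside the spread between libraries.

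Among the members that slow division, Btg2 fell from 1037, 1089 and 1098 to 434, 476 and 459 (-1.24 ± 0.05, adjusted p = 1.7e-12). Cdkn1a fell less, from 3980, 3908 and 3876 to 2996, 3105 and 3214 (-0.34 ± 0.03, adjusted p = 9.6e-08). Sesn1 dropped from 1040 ± 20.2 to 621 ± 35.1 (-0.75 ± 0.05) and Zmat3 from 5201 ± 21.04 to 3644 ± 372 (-0.52 ± 0.05), with the widest relative spread among CCG-1423 libraries after that of Eda2r. Perp, the most counted member, went from 58655 ± 498 to 48348 ± 2193 (-0.28 ± 0.04). Beside Perp, all 5 desmosome genes fell, with a median of -0.71 and sums of 262207 to 275633 with vehicle and 158540 to 165869 with CCG-1423, and of the 5 basal keratinocyte and carcinoma genes 4 fell on the log2 scale (Krt5 -2.66, Krt14 -2.37, Gli1 -1.72 and Trp63 -1.02) and Ptch1 rose by 0.85. The part of these changes in the members' values was not tested. These are cultures of a single line. In vehicle libraries the 4 T and NK cell markers summed to 0 to 1.13 normalized counts, with Cd3d, Cd8a and Nkg7 at 0 in each. The 4 endothelium markers summed to 890 to 913 there, with Kdr at 0 in each library and 2 of the 4 averaging below 10. The 4 macrophage markers summed to 553 to 594, with 1 averaging below 10. The source of these reads was not tested.

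**Figure D2:**
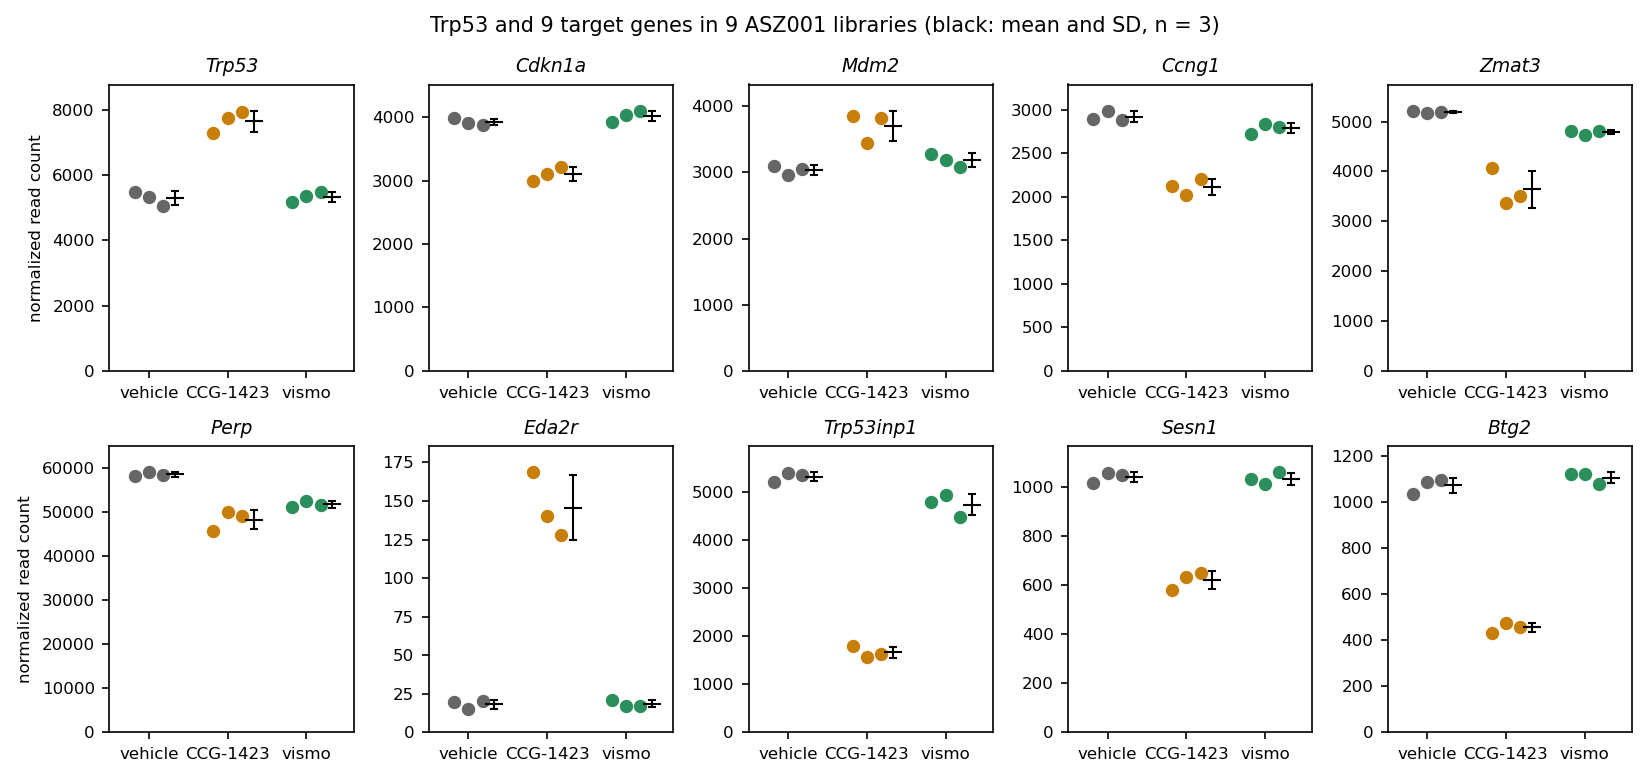
Normalized read counts (vertical axes, each from 0) of the 10 members in ASZ001 cells with vehicle, CCG-1423 or vismodegib; points are libraries and black marks are means with SD (n = 3). The CCG-1423 points lie apart from the vehicle points in all 10 panels, from 128 to 169 against 14.9 to 20.4 in Eda2r, while vismodegib and vehicle lie close together.

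The other genes of the pathway went both ways with CCG-1423. Of 47 other p53 targets 24 rose and 13 fell (78.7% passing, against 85.3% of all genes), with a median log2 fold change of 0.15. Gadd45a, a growth arrest gene that also answers to ATF4, rose by 2.52 ± 0.05 (adjusted p = 2.6e-16), and Bbc3 by 1.45 ± 0.09. Ak1, an adenylate kinase, fell by 3.12 ± 0.06, Sulf2, a heparan sulfatase, by 2.45 ± 0.05, Steap3, an iron reductase, by 1.63 ± 0.03 and Bax by 0.42 ± 0.04. Gdf15, a stress cytokine, had 1 to 3 reads a library with vehicle and 83 to 140 with CCG-1423, which is 92.7, 121 and 115 normalized counts. Among 22 family members and regulators 13 rose and 8 fell (95.5% passing, against the same 85.3%). Mdm4 rose from 532 ± 13.9 to 1128 ± 57.9 (1.08 ± 0.05), whereas Trp63 fell from 13772 ± 275 to 6781 ± 33.7 (-1.02 ± 0.03). Atr, a damage checkpoint kinase, fell by 1.33 ± 0.07, Trp53bp1, a repair factor, by 0.76 ± 0.04, Cdkn2a by 0.51 ± 0.03 and Trp73 by 0.25 ± 0.07.

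Alongside lower Cdkn1a, 18 of 20 cell cycle genes rose with CCG-1423 and 0 fell (median 0.83), where 42.8% of all genes rose and 42.6% fell, among them Aurka (1.38 ± 0.06), Ube2c (1.18 ± 0.06), Aurkb (1.18 ± 0.06) and Bub1b (0.87 ± 0.04). Among the 16 genes of the integrated stress response, 14 were higher past the threshold and 2, Slc7a11 and Vldlr, lower (median 2.15), so that all passed beside 85.3% of genes in general. Nupr1 rose by 6.34 ± 0.09, Trib3 by 4.95 ± 0.07, Ddit3, which encodes CHOP, by 3.62 ± 0.04 and Atf4 by 2.16 ± 0.03. Sesn2 and Ddit4 stand in both this list and that of p53 targets. Sesn2, a sestrin that ATF4 is also known to induce and that was named after its value was seen, rose by 1.85 ± 0.05, opposite to the member Sesn1.

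Vismodegib left the members almost where vehicle had them. Perp and Trp53inp1 fell and the other 8 did not pass, that is 2 of 10 against 5.50% of all genes tested (1.58% higher and 3.92% lower). Perp had 51233, 52707 and 51686 normalized counts with vismodegib against 58204, 59190 and 58570 with vehicle, a log2 fold change of -0.18 ± 0.04 (adjusted p = 0.00857). Trp53inp1 had 4787, 4925 and 4487 against 5210, 5395 and 5343, a log2 fold change of -0.17 ± 0.05 (adjusted p = 0.0408). These 2 members, Ccng1 and Zmat3 did not overlap between the groups, as was so for 29.9% of all genes. Leaving out vehicle library 2 or vismodegib library 3 ended both calls, and leaving out any other library of these groups ended that of Trp53inp1. With libraries scaled to equal total reads neither passed (-0.095 and -0.086) while Cdkn1a (0.12) and Mdm2 (0.15) did. That scaling also turned the share of higher genes among all called from 28.7% to 90.5%.

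For the members that did not pass, the 95% intervals of the log2 fold change with vismodegib were narrow except for Eda2r. They ran from -0.069 to 0.095 for Trp53, -0.035 to 0.11 for Cdkn1a, -0.023 to 0.16 for Mdm2, -0.12 to 0.097 for Sesn1 and -0.062 to 0.15 for Btg2. For Ccng1 the interval was -0.15 to 0.010 and for Zmat3 -0.23 to -0.010 (adjusted p = 0.220), and for Eda2r, with 17 to 19 reads a library, it was -0.38 to 0.45. Among the lists, 2 of 47 other p53 targets rose and 5 fell (14.9% passing, against 5.50% of all genes), with Steap3 (-0.27 ± 0.03), Kitl (-0.27 ± 0.05), Pmaip1 (-0.25 ± 0.05), a death gene also called Noxa, and Sulf2 (0.24 ± 0.05) of smallest p. Of 22 family members and regulators 2 fell, Hipk2 (-0.23 ± 0.05), a kinase that activates p53, and Trp73 (-0.29 ± 0.07), which is 9.09%, and of 20 cell cycle genes 0 passed by limma, edgeR or DESeq2. The call of Trp73 was lost when any of the 6 libraries was left out (adjusted p = 0.0753 to 0.114). Hipk2 was lost without vismodegib library 3 (adjusted p = 0.0535), Pmaip1 without vehicle library 2 (0.0539) and Sulf2 without vismodegib library 2 (0.0565). Slc7a11, a cystine transporter, was the single integrated stress response gene of 16 that rose (0.41 ± 0.04), while it fell by 1.39 ± 0.04 with CCG-1423. Mdm4 (-0.035 ± 0.053), Trp63 (-0.084 ± 0.028), Cdkn2a (0.029 ± 0.032), Bax (0.015 ± 0.037) and Bbc3 (-0.068 ± 0.095) did not pass, and Gdf15 had 0 to 2 reads a library.

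The difference between the 2 compounds was tested directly in the same fit. All 10 members differed between CCG-1423 and vismodegib, as did 84.8% of all genes tested (42.4% in each direction), and none overlapped, as for 85.1%. Relative to vismodegib CCG-1423 gave higher Eda2r (2.89 ± 0.19, with an interval of 2.48 to 3.31), Trp53 (0.52 ± 0.04) and Mdm2 (0.22 ± 0.04). It gave lower Trp53inp1 (-1.51 ± 0.05), Btg2 (-1.28 ± 0.05), Sesn1 (-0.74 ± 0.05), Ccng1 (-0.40 ± 0.04), Zmat3 (-0.40 ± 0.05), Cdkn1a (-0.37 ± 0.03) and Perp (-0.10 ± 0.04, adjusted p = 0.0156). The difference in Perp was the smallest, with an interval of -0.18 to -0.025, and the call ended without vismodegib library 2 (adjusted p = 0.0666). Among other p53 targets 26 of 47 were higher and 14 lower with CCG-1423 than with vismodegib, with Sulf2 (-2.68 ± 0.05), Gadd45a (2.36 ± 0.05), Ak1 (-2.83 ± 0.06) and Ptpn14 (-1.53 ± 0.03) of smallest p. Since doses and times are not known, the compounds may not be matched in either.

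**Figure D3:**
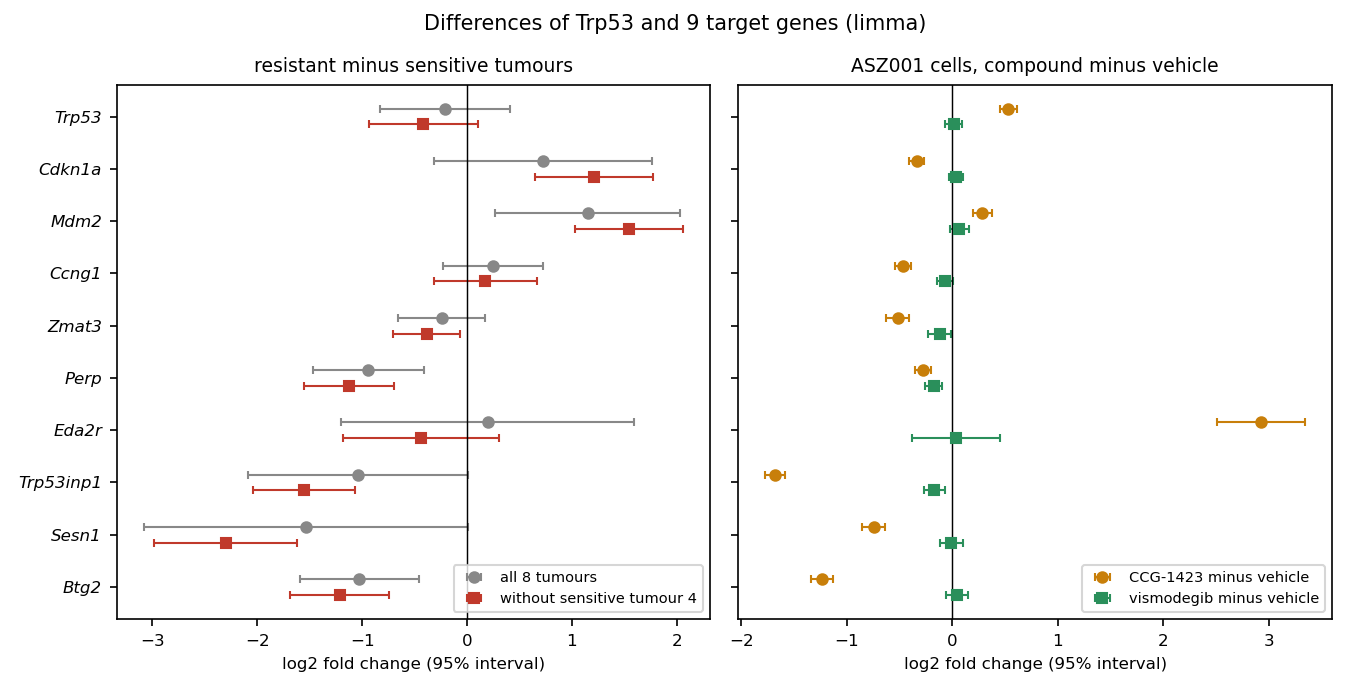
Log2 fold changes (horizontal axes) with 95% intervals for the 10 members, resistant minus sensitive tumours on the left (grey, all 8 tumours; red, without sensitive tumour 4) and compound minus vehicle in ASZ001 cells on the right (orange, CCG-1423; green, vismodegib). The intervals in the tumours are wider, for Sesn1 from -3.08 to 0.01 with all 8 tumours, than those in the cells, where that of Eda2r under CCG-1423 runs from 2.51 to 3.34.

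**Figure D4:**
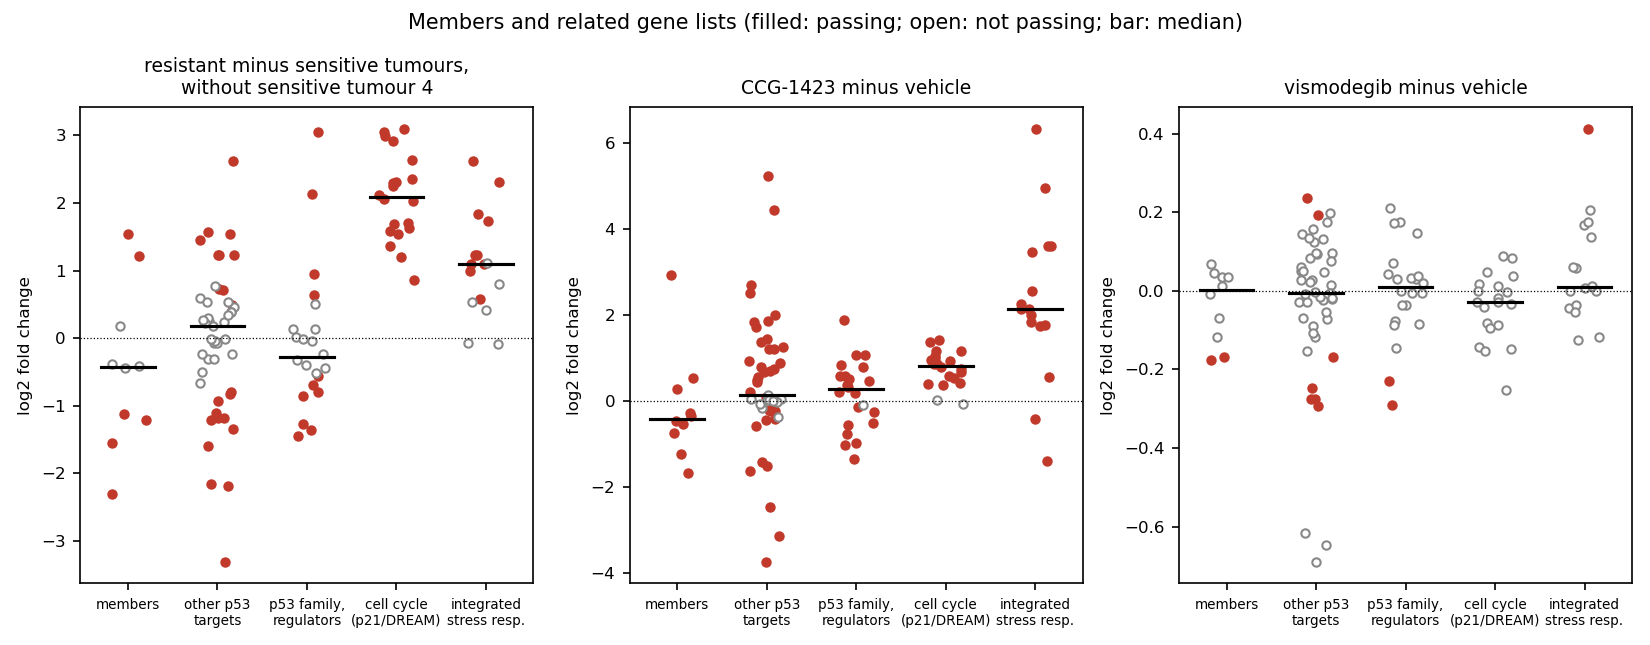
Log2 fold changes (vertical axes, which differ in range) of the members and of 4 related gene lists in 3 comparisons; each point is a gene, filled where its adjusted p was below 0.05, and bars are medians. The cell cycle genes have medians of 2.09 in the tumours without sensitive tumour 4, 0.83 with CCG-1423 and -0.028 with vismodegib, while the members have -0.43, -0.40 and 0.0021.

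The patterns most like those of Trp53 and Cdkn1a over libraries were sought by Pearson correlation of log2 values. Over the 9 cell libraries, among 10699 genes with a mean of at least 50, Trp53 was followed most closely by Akt1s1 (r = 0.999), Lsm11 (r = 0.997) and Spats2 (r = 0.997), and Cdkn1a by Bcap31, Rab7 and Akr1a1 (r = 0.999, 0.998 and 0.997). The 9 libraries share the step between CCG-1423 and the rest, which 85.3% of genes take in 1 direction or the other. Over the 8 tumours, among 12140 genes, Trp53 was most like Pot1b (r = 0.998), Paqr4 (r = 0.980) and Zfp369 (r = 0.978), and Cdkn1a most like Pgm1, Atg4b and Bcar1 (r = 0.994, 0.989 and 0.988). Among the members, Mdm2 had r = 0.943 with Cdkn1a over the tumours, at rank 261 of 12140, and Ccng1 had r = 0.032. The other members measured were opposed to Cdkn1a, with r = -0.929 for Zmat3, -0.905 for Trp53inp1, -0.905 for Sesn1, -0.748 for Trp53, -0.667 for Perp and -0.629 for Btg2.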

How the data were processed

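RNA sequencing of 17 libraries was analysed: 4 sensitive and 4 resistant tumours and 9 ASZ001 libraries, grouped by their titles. The deposited signal values are normalized read counts per gene that the authors made from whole reads with a single factor for each library, separately in the tumour and the cell table, as the values show. The submitters' processing notes list TopHat, DESeq and mm9 without their roles. The gene counter, annotation and strand setting are not stated, so reads of overlapping or antisense genes cannot be told apart. Dividing each column by its smallest value above 0 gave whole reads for 100% of values (tolerance 0.01 read), and 3 reads correspond to 2.09 to 4.97 normalized counts in tumours and 2.45 to 3.40 in cells. Counting error only is covered by such limits. Replicates differed beyond counting noise (chi-square per degree of freedom at least 1.84).

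Differences were tested by limma (3.58.1, R 4.3.3) with a variance trend on log2 of the normalized count plus 1, for genes at 10 or more in at least 4 tumour or 3 cell libraries, or as many as the smallest group holds where a library was left out. P-values are 2-sided with Benjamini-Hochberg adjustment over all genes tested, at a threshold of 0.05. The 9 cell libraries shared 1 fit. Alternatives were a pseudocount of 0.5, no filter, edgeR 4.0.16 and DESeq2 1.42.0 on recovered reads, total-read scaling, a replicate block, a sex term, the 2 groups alone and leaving out each library. The edgeR and limma steps were also run on simulated data, with outcomes not given here, and DESeq2 was not. Named genes are the members, up to 4 passing genes of smallest p per list (2 where none passed in the tumours) and Mdm4, Trp63, Trp73, Cdkn2a, Bax, Bbc3 and Gdf15, a rule that was repeated without sensitive tumour 4. The members and lists were chosen with earlier results of these data known. Tigar and Cop1 were read under the older symbols 9630033F20Rik and Rfwd2.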

Additional observations from a re-analysis of the deposited data

Results flagged for a closer look

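All 20 combinations of a member and a tumour group were checked by the gap to the nearest neighbour relative to the group's range. Only sensitive tumour 4 was flagged, which lay far from the other 3 sensitive tumours in 4 of the 10 members. It was highest in Cdkn1a, at 3838 normalized counts, and in Mdm2, at 3411. It was lowest in Trp53inp1, at 741, and in Eda2r, at 5.07, which is 5 reads. The gap took 0.997, 0.903, 0.928 and 0.883 of the range, above Dixon's critical value at 95% for 4 samples. Chance alone flags about 1 in 20 groups, and the 4 flags share a single library. That library had no Y-linked reads and 15784 summed normalized counts of neutrophil markers, and their part in these values was not tested.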

How the results depend on the processing

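In the comparison of CCG-1423 with vehicle all 10 members kept their direction and their call under every alternative run, as they did against vismodegib except for Perp without vismodegib library 2. In the tumours the count of all genes passing was 17, and it was 0 with edgeR, a pseudocount of 0.5, total-read scaling, a sex term or a replicate block, 1630 with DESeq2, and 0 to 6184 with a library left out (6184 without sensitive tumour 4). Members passing numbered 0, or 3 with DESeq2 and 0 to 6 with a library left out. Total-read scaling moved the median of all genes in the tumours from 0.03 to -0.08. With vismodegib 703 genes passed, 1721 in the 2 groups alone, 3229 with total-read scaling and 325 to 498 with a library left out. The 2 members passing became 1 with no filter (Trp53inp1 lost, adjusted p = 0.0543) or a replicate block, 3 in the 2 groups alone and 0 to 1 with a library left out. The replicate block took Trp53inp1 to an adjusted p of 0.0516. Same-numbered libraries did not deviate together (r from -0.19 to 0.15 in tumours and -0.06 to 0.06 in cells), and 3 of 8 tumour libraries correlated best with their own number. In cells it was 2 or 3 of 6 per pair of groups. No pairing by number was detected, but with so few libraries a group this check cannot exclude it.

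A sex term, which sets the resistant tumours against sensitive tumour 4 alone, reversed several log2 fold changes, none passing. They became 0.41 for Trp53, -0.74 for Cdkn1a, -0.046 for Mdm2, 0.20 for Zmat3, 0.50 for Trp53inp1 and 0.76 for Sesn1. Among the other genes they became -0.40 for Asns, 0.068 for Bbc3, -0.61 for Ccna2, -0.34 for Chek1, 0.87 for Ephx1, -0.92 for Foxm1, -0.28 for Mad2l1, -0.89 for Mcm5, 0.21 for Mdm4, -0.31 for Psat1, 0.063 for Tap1, 0.031 for Trp53bp2, 0.48 for Trp63, -0.55 for Ube2c, -0.42 for Vldlr and 0.41 for Zfp365. Eda2r in the tumours turned to -0.074 with DESeq2 and -0.073 with edgeR, and lay between -0.44 (without sensitive tumour 4) and 0.44 with a library left out. With vismodegib, small differences turned with total-read scaling for Ccng1 (0.014), Sesn1 (0.073), Bbc3 (0.013) and Mdm4 (0.047). With a library left out they ranged from -0.019 to 0.038 for Trp53, -0.099 to 0.11 for Eda2r and -0.027 to 0.0070 for Sesn1. Trp73 between the compounds turned to -0.012 with total-read scaling and ranged from -0.061 to 0.14 with a library left out. The cause was not tested.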

Other observations

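The members that differed in the tumours without sensitive tumour 4 were also read with CCG-1423, where a different control group and table were used. Of the 10 members 6 had the same sign in both comparisons (60.0%), against 55.8% of all genes tested in both. Of the 6 members that passed in both, 5 had the same sign (Mdm2 higher, and Perp, Trp53inp1, Sesn1 and Btg2 lower) and Cdkn1a the opposite one. Of the 12329 genes tested in both, 4141 passed in both, and 60.2% of these had the same sign. With all 8 tumours 0 members passed in both.

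Some further values of p53 targets with CCG-1423 are given here for genes chosen after their values were seen. Fas, a death receptor, rose from 9.38 ± 3.75 to 216 ± 8.19 normalized counts (SD, n = 3 each), a log2 fold change of 4.45 ± 0.24, and Pmaip1 from 1362 ± 67.1 to 3193 ± 211 (1.23 ± 0.05). Plk3, a stress kinase, rose by 2.71 ± 0.13. Of other death genes in the same list, Bbc3 (1.45 ± 0.09), Apaf1 (1.27 ± 0.05), Tnfrsf10b (0.94 ± 0.06) and Aen (0.44 ± 0.05) also rose. Pidd1 (0.15 ± 0.17) and Ei24 (-0.0095 ± 0.038) did not pass, and Bax fell (-0.42 ± 0.04), as did Phlda3 of that list (-0.57 ± 0.03). In the opposite direction Trp53i11 went from 53.8 ± 6.62 to 3.26 ± 1.32, near the limit that 3 reads set. With vismodegib Fas had 0.096 ± 0.24 and Plk3 0.075 ± 0.13, neither passing.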
